A study of Mus musculus with 6 samples.

Results

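Genes of BMP, TGF-beta and activin signalling were examined in cultured mouse cerebellar granule neurons (CGNs) that had received GSK-126, a small molecule that inhibits EZH2, or the vehicle DMSO. EZH2, like EZH1, is an enzyme that writes H3K27me3, the trimethylated form of a lysine in the tail of histone H3. This mark is found at silenced promoters. The members were taken by symbol: the BMP and GDF ligands, TGF-beta 1 to 3, the inhibin and activin subunits, their type I, II and III receptors, the SMADs, and the noggin, chordin, gremlin, BMPER, follistatin and follistatin-like genes, with 1 other GDF symbol left out. The tables held 58 such genes among 55341 gene symbols. Of these 58, 44 reached a CPM of 1 (counts scaled to library size alone) in at least 3 of the 6 libraries, as did 16685 genes in all. The CPM values of genes and marker lists given below were also scaled with TMM factors.

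Each group held 3 poly(A) RNA-seq libraries, DMSO (n = 3) and GSK-126 (n = 3), with replicate numbers 1, 2 and 3 in both. The labels named the agent, gave no dose and no day of addition, and gave cerebellum as the source although the titles named CGNs. By the study's methods, the cells of both groups came from CD1-IGS mice dissected at postnatal days 6 to 8, were enriched on a Percoll gradient, and received cytosine arabinoside on day 2 in vitro against dividing non-neuronal cells. Inhibitors were added once, on day 1 or day 3 in vitro, and cells were collected on day 5. A culture replicate was a pool of litters, so no library is a single animal.

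TGF-beta, activin and BMP ligands are secreted as dimers and bind pairs of type I and type II serine/threonine kinase receptors. TGF-beta and activin receptors phosphorylate SMAD2 and SMAD3, BMP receptors phosphorylate SMAD1, SMAD5 and SMAD9, and both kinds of SMAD enter the nucleus with SMAD4. In the young cerebellum BMP ligands are known to restrain the division of granule neuron precursors, and TGF-beta is held in the matrix in a latent form until it is released.

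Total gene counts ran from 8058760 to 12047837 per library, and a count of 3 equalled 0.249 to 0.372 CPM, which covers counting error only. Granule neuron markers (10 genes) were present in every library with summed levels of 4036 to 6007 CPM under DMSO and 2882 to 4506 CPM under GSK-126. Of the 10, 6 fell, and Gabra6 and Cbln3 fell most, with edgeR log2 fold changes of -1.42 and -1.45. Barhl1 was higher in all 3 pairs (0.39) but did not pass, and Pax6 had 0.04 with pairs of both signs. Markers of other cells were present too. The summed level of 9 fibroblast and meningeal markers was 6952 to 8990 CPM under DMSO and 8968 to 10055 CPM under GSK-126, and that of 10 endothelial and mural markers was 486 to 752 CPM against 834 to 1040 CPM. The 9 astrocyte and Bergmann glia markers summed to 2714 to 7868 CPM and 2705 to 8103 CPM, and the 11 microglia markers to 308 to 527 CPM and 375 to 791 CPM, with Trem2 at 0 counts in all 6 libraries. Smaller sums, given for DMSO and then GSK-126, were found for oligodendrocyte lineage markers (454 to 709 CPM and 506 to 824 CPM), dividing precursor markers (332 to 449 CPM and 381 to 500.3 CPM) and cerebellar GABAergic neuron markers (231 to 294 CPM and 197 to 227 CPM). In libraries of mixed cells, fewer cells of a type and less RNA per cell cannot be told apart.

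**Figure D1:**
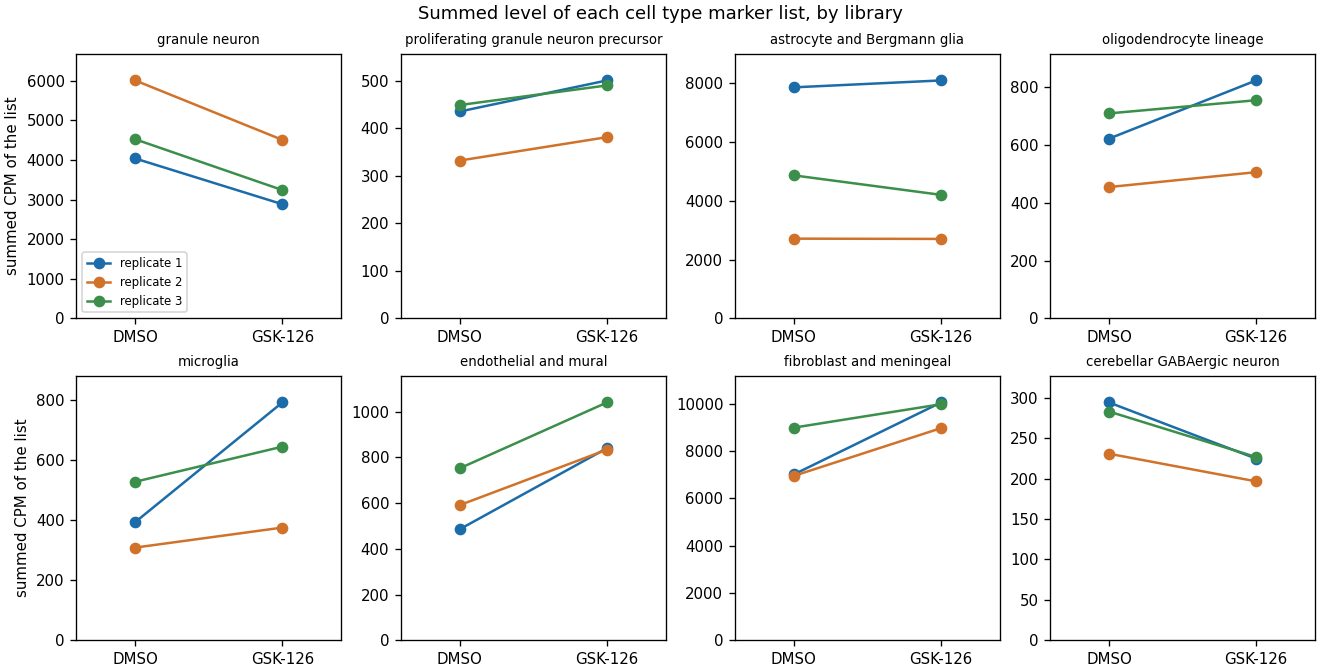
Summed CPM (y axis, from 0) of each of 8 cell type marker lists in the DMSO and GSK-126 libraries (x axis), with a line joining the libraries of each replicate number. The granule neuron and cerebellar GABAergic neuron sums were lower under GSK-126 in all 3 pairs. The endothelial and mural sum was higher in all 3 without overlap of the groups, and the fibroblast and meningeal sum was higher in all 3.

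The promoters of 3 ligand genes that were higher under GSK-126 and of the gene that was lower are printed here because these genes carry the main result. Each window runs from 250 bases before to 50 bases after the start of transcription, 5′ to 3′ on the gene's strand, from RefSeq on GRCm38.p6. Capitals mark the letters CAGACA, the core of the element that SMAD3 binds, or its reverse complement TGTCTG. The windows are chr7:25686752-25687051 (plus strand) for Tgfb1, chr1:186705940-186706239 (minus strand) for Tgfb2, chr13:16011601-16011900 (plus strand) for Inhba and chr11:52764456-52764755 (plus strand) for Fstl4.
Tgfb1: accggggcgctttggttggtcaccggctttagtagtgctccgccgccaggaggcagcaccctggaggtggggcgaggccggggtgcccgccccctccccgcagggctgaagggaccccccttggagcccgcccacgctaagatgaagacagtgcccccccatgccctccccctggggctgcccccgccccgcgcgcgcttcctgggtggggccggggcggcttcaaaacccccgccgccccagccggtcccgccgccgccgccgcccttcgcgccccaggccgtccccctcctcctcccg
Tgfb2: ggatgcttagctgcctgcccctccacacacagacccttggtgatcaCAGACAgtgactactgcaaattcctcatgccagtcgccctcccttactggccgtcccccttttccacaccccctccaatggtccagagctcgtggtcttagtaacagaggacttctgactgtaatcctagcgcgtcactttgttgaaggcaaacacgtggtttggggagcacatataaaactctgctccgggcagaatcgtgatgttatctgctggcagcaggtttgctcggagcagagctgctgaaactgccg
Inhba: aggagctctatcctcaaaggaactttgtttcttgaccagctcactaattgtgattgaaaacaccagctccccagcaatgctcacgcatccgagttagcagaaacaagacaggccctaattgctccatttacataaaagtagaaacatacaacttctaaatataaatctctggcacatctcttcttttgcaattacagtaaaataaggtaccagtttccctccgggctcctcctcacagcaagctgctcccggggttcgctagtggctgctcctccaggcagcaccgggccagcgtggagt
Fstl4: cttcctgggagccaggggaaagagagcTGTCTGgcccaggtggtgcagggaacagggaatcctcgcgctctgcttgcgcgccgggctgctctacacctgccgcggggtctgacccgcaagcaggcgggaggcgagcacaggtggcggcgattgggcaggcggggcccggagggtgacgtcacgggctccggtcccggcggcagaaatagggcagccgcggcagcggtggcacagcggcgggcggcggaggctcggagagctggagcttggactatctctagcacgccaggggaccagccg

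CAGACA was found in the Tgfb2 window, with its first base at position -204 from the start, and in the Fstl4 window on the opposite strand, at position -223. It was not among the letters of the Tgfb1, Inhba and Fstl1 windows. The Tgfb1 window was rich in CpG, with an observed to expected ratio of 0.694, as was the Fstl4 window with 0.787 and the Fstl1 window with 0.684. The Tgfb2 and Inhba windows were poorer, with 0.458 and 0.426. RefSeq windows were matched for 41 of the 58 members (50 windows). A ratio over 0.6 was found in 60% of them, against 35.8% of all windows, and in 68.3% of the windows of members tested, against 64.5% of those of all genes tested. CAGACA, searched on both strands, stood in 20% of the members' windows and 21% of all windows, and in 22% of the windows of members tested and 16.6% of those of all genes tested. GGCGCC, a GC-rich element bound by SMAD1 and SMAD5, stood in 20% and 11.9% of the former pair of sets and in 22% and 20.4% of the latter. Among the genes past the threshold, GGCGCC was in none of the 5 windows.

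In the comparison of GSK-126 with DMSO, paired by replicate number, 4 of the 44 members rose and 1 fell. Tgfb1 and Tgfb2, which encode TGF-beta ligands, Inhba, which encodes the subunit of activin A, and Fstl1, a secreted follistatin-like glycoprotein, rose by 1.33 to 1.85 times. Fstl4, which encodes a protein with a follistatin-type domain, fell to 0.464 of its DMSO level. These 5 made up 11.4% of the members tested, where 3.61% of all 16685 genes passed the same test (2.23% higher and 1.38% lower). The test was the quasi-likelihood F test of edgeR with the replicate number as a block and a Benjamini-Hochberg adjusted p of 0.05 over all genes. Without the block edgeR called 0 members and 0 genes, and 996 genes (5.97%) had an unadjusted p under 0.05. DESeq2 with the block called the same 5 members, and 4.01% of all genes (2.45% higher and 1.56% lower).

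Over the 44 genes, the edgeR log2 fold change had a median of 0.23, where that of all genes tested was -0.0013, and 30 were positive and 14 negative. By unadjusted p under 0.05, 14 were higher and 3 were lower, 38.6% of those tested against 16.5% of all genes (9.15% higher and 7.31% lower). The GSK-126 library was higher in all 3 pairs for 18 of them and lower in all 3 for 5, where 19.6% and 19.1% of all genes did so. Groups of 3 were apart upward for 4 members (Fstl1, Bmp6, Acvr1 and Tgfbr3) and downward for 1 (Fstl5), as they were for 5.41% and 5.43% of all genes. These counts describe the list, and no test of it was made. By role, the median was 0.69 for the 3 TGF-beta ligands, 0.64 for the 3 subunits tested, 0.48 for the 6 antagonists tested, 0.25 for the 8 BMP and GDF ligands tested, 0.23 for the 7 type I receptors, 0.18 for the 8 SMADs, -0.02 for the 4 type II receptors and -0.72 for the 3 follistatin-like genes. The single genes of the remaining roles, Tgfbr3 and Bmp1, had 0.20 and -0.35.

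Tgfb1 (chr7:25687002-25705077, plus strand, GRCm38) encodes the founding ligand of the family, which is secreted in complex with a latency peptide. It was measured at 30.7, 28.7 and 45.1 CPM in DMSO replicates 1, 2 and 3 and at 58.2, 44.4 and 67.0 CPM in GSK-126 replicates 1, 2 and 3. Each GSK-126 library was above its DMSO partner, and the groups overlapped narrowly, because DMSO replicate 3 lay just above GSK-126 replicate 2. The fitted log2 fold change was 0.71 (SE 0.13) with an edgeR adjusted p of 0.0136, and of 0.821 without the block.

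Tgfb2 (chr1:186622792-186705989, minus strand) encodes a TGF-beta ligand that neurons and glia are known to make. Its values, in the same order, were 59.9, 26.6 and 44.7 CPM under DMSO and 108, 43.2 and 63.4 CPM under GSK-126. Replicate 1 was the highest and replicate 2 the lowest in both groups, so the groups overlapped while every pair moved upward. The log2 fold change was 0.69 (SE 0.12) with an edgeR adjusted p of 0.0119, and of 0.830 without the block. Of the Tgfb2 exon length, 2.14% overlaps a gene on the other strand, and the strand setting of the counting is not given in the sources used here.

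Tgfb3, the remaining TGF-beta ligand gene, did not pass. It was at 9.89, 19.4 and 24.3 CPM under DMSO and 24.8, 22.2 and 34.6 CPM under GSK-126, with a log2 fold change of 0.66 and an edgeR adjusted p of 0.124. Its pair 1 differed far more (1.31 on the log2 scale) than pair 2 (0.19) or pair 3 (0.51). On the other strand, 12.4% of its exon length is shared with another gene.

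Inhba (chr13:16011851-16031621, plus strand) encodes the beta A subunit, which forms activin A as a homodimer and inhibin A with the alpha subunit. It stood at 9.31, 20.7 and 15.2 CPM under DMSO and at 18.1, 40.4 and 25.3 CPM under GSK-126. Replicate 1 was lowest and replicate 2 highest in both groups, the reverse of Tgfb2, and each pair rose by a similar step of 0.94, 0.96 and 0.73 on the log2 scale. The fitted log2 fold change was 0.89 (SE 0.16) with an edgeR adjusted p of 0.0133, and of 0.829 without the block. The call was lost without replicate 2, at a log2 fold change of 0.86 and an edgeR adjusted p of 0.0848.

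Inhbb, for the beta B subunit, was at 10.001, 15.0 and 17.2 CPM under DMSO and 14.7, 25.9 and 25.3 CPM under GSK-126. It was above its partner in all 3 pairs but did not pass, with a log2 fold change of 0.64 and an edgeR adjusted p of 0.0701. Inha, for the alpha subunit found only in inhibins, had a log2 fold change of 0.03 and an edgeR adjusted p of 0.963, from 9.66, 21.1 and 9.31 CPM under DMSO and 11.6, 16.5 and 10.9 CPM under GSK-126. Per kilobase of exon, Inha had the highest DMSO level of the subunits at 9.05 CPM, above Inhbb at 3.30 and Inhba at 2.36. Inhbc and Inhbe had 0 counts in every library.

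**Figure D2:**
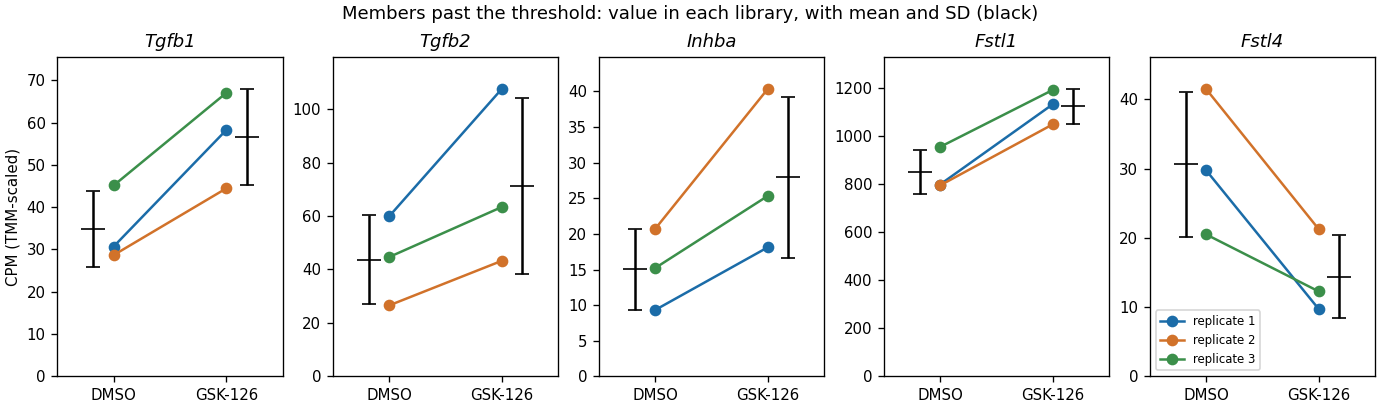
CPM (y axis, from 0, TMM-scaled) of the 5 genes past the threshold in each DMSO and GSK-126 library (x axis), with coloured points and lines for replicates 1, 2 and 3 and black marks for the mean and SD of 3 libraries. Tgfb1, Tgfb2, Inhba and Fstl1 were higher and Fstl4 was lower in each of the 3 pairs, and the groups of 3 were apart for Fstl1 alone.

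The follistatin-like genes share a name and a follistatin-type domain rather than a single role in the pathway. Fstl1 (chr16:37776873-37836514, plus strand) was the most abundant member per kilobase of exon, at 173 CPM under DMSO. It was at 798, 795 and 955 CPM under DMSO and 1132, 1049 and 1192 CPM under GSK-126. All GSK-126 libraries lay above all DMSO libraries. The log2 fold change was 0.41 (SE 0.096) with an edgeR adjusted p of 0.0407, and of 0.824 without the block. This call was the least stable of the 5, with an edgeR adjusted p of 0.218 without replicate 2 and 0.180 without replicate 3.

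Fstl4 (chr11:52764634-53188538, plus strand) was at 29.8, 41.5 and 20.5 CPM under DMSO and at 9.72, 21.3 and 12.3 CPM under GSK-126. It was lower in each pair, most in pair 1 (-1.59 on the log2 scale), and GSK-126 replicate 2 lay slightly above DMSO replicate 3. The log2 fold change was -1.11 (SE 0.19) with an edgeR adjusted p of 0.0104, and of 0.821 without the block. Fstl5, its relative, was at 29.8, 23.9 and 22.7 CPM under DMSO and 15.2, 19.9 and 11.8 CPM under GSK-126. The groups did not overlap for Fstl5, yet its log2 fold change of -0.72 had an edgeR adjusted p of 0.0606. Without replicate 2 that adjusted p was 0.0461, at a log2 fold change of -0.94.

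Among the granule neuron markers, whose summed level was also lower under GSK-126 in all 3 pairs, the edgeR log2 fold changes had a median of -0.55. Of these values, 8 were negative and 2 positive. The cerebellar GABAergic neuron sum was lower in all 3 pairs as well, without overlap of the groups. Its markers had a median of -0.26, with 8 values negative and 2 positive, and Slc32a1 fell (-0.58). The fibroblast and meningeal, endothelial and mural, microglia, oligodendrocyte lineage and dividing precursor sums were higher in all 3 pairs, as were Tgfb1, Tgfb2, Inhba and Fstl1. In the dividing precursor list, Ccnd1, which had the highest mean CPM, had a log2 fold change of 0.40, and Mki67 had 0.19. Cdk1, Top2a and Ccna2 had 0.02, -0.0005 and -0.13. None of these 5 passed, and Atoh1 and Gli1 did not reach the filter. Among the single markers of these lists, Col1a1 (fibroblast), Flt1, Pdgfrb and Acta2 (endothelial and mural), C1qb and C1qc (microglia) and Cspg4 (oligodendrocyte lineage) rose. Slc6a13, a meningeal marker, fell, and the others tested did not pass. Fitted values were positive and negative for 7 and 2 fibroblast and meningeal, 6 and 2 endothelial and mural, 8 and 2 microglia, and 6 and 3 oligodendrocyte lineage markers. Cdh5 was lower in all 3 pairs (-0.30), and Kdr, Cx3cr1 and Aif1 had -0.01, -0.02 and -0.08. In the list of Cspg4, Olig1, Olig2 and Sox10 had 0.13, 0.24 and -0.10. The part of cell composition in the changes of the members was not tested.

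The BMP and GDF ligands form the largest class, with 19 symbols, of which 8 were tested and 0 passed. By unadjusted p under 0.05, Gdf15 and Bmp6 were higher, and by DESeq2 with the block 0 passed as well. Bmp6 had the highest level of the class, 14 CPM per kilobase of exon under DMSO. It was measured at 55.1, 51.5 and 57.7 CPM under DMSO and at 81.5, 67.3 and 72.2 CPM under GSK-126, with groups apart. Its log2 fold change was 0.43 with an edgeR adjusted p of 0.0728, and 5.74% of its exon length overlaps Txndc5 on the other strand.

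Gdf15, a stress-responsive ligand that acts through a receptor outside this list, was at 3.10, 1.99 and 7.54 CPM under DMSO and 8.31, 4.20 and 13.5 CPM under GSK-126. It was higher in every pair, by a log2 fold change of 1.10, with an edgeR adjusted p of 0.0548. The other 6 ligands had an unadjusted p of 0.05 or more. Gdf11 had a log2 fold change of 0.28 that came from pair 1 (0.86, against -0.16 and 0.07). Bmp2, Bmp4, Bmp5, Bmp7 and Bmp8b had log2 fold changes of 0.56, 0.22, -0.11, -0.11 and -0.41, with edgeR adjusted p from 0.580 to 0.820. Bmp5 shares 46.7% of its exon length with a gene on the other strand, and Bmp8b has a near-identical copy in Bmp8a, so these levels are uncertain. Bmp7 was at 44.1 CPM in DMSO replicate 1 and 33.4 CPM in GSK-126 replicate 1, and at 13.3 to 15.9 CPM in the other libraries, a spread by replicate number rather than by agent.

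The 14 members that did not reach the filter included 11 ligands and the subunits Inhbc and Inhbe. Bmp10, Gdf1, Gdf2, Inhbc and Inhbe had 0 counts in all libraries, and the exons of Gdf1 lie wholly within those of Cers1 on the same strand. Bmp15 had 0 to 6 counts per library, Bmp3 had 2 to 7, Bmp8a had 0 to 6 and Gdf3 had 0 to 8. Gdf5 had 0 to 6, Gdf6 had 1 to 10, Gdf7 had 2 to 16 and Gdf9 had 0 to 4. In the edgeR fit with no filter on low counts, 9 of these 14 were tested, 0 were called and 0 had an unadjusted p under 0.05.

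**Figure D3:**
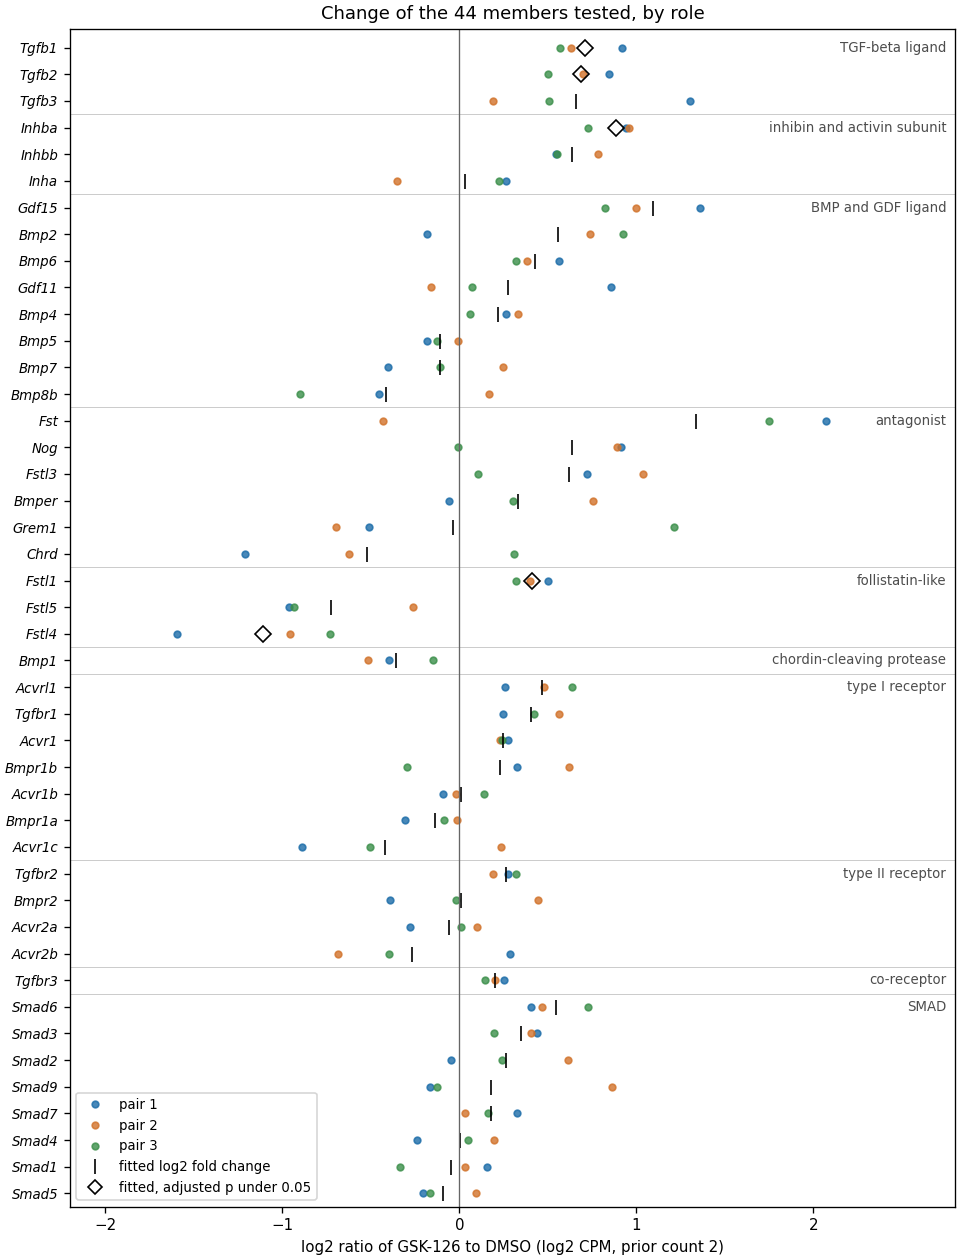
log2 ratio of GSK-126 to DMSO (x axis, log2 CPM with a prior count of 2) for the 44 genes tested, in rows by role, with a coloured point for each of the 3 pairs, a bar for the fitted log2 fold change and a diamond where the adjusted p was under 0.05. The fitted value was above 0 for 30 genes and below 0 for 14, and diamonds stand at Tgfb1, Tgfb2, Inhba, Fstl1 and Fstl4.

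Type I receptors carry the kinase that phosphorylates SMADs, and all 7 of them passed the filter. None was called in either direction by edgeR with the block, where 2 had an unadjusted p under 0.05, nor by DESeq2 with it. Bmpr1a, a BMP receptor, had the highest level of the class, 26.3 CPM per kilobase of exon under DMSO. It was at 230, 122 and 148 CPM under DMSO and 186, 121 and 140 CPM under GSK-126. Its log2 fold change was -0.14 with an edgeR adjusted p of 0.597, and the spread between replicate numbers exceeded the difference between the groups.

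Tgfbr1, the TGF-beta type I receptor, was at 48.5, 26.3 and 32.6 CPM under DMSO and 57.7, 38.9 and 43.7 CPM under GSK-126. All 3 pairs were higher, by a log2 fold change of 0.41 with an edgeR adjusted p of 0.138. Acvrl1, a receptor of vessel-lining cells, had a log2 fold change of 0.47 and an edgeR adjusted p of 0.249, from 11.4, 8.48 and 14.4 CPM to 13.6, 11.9 and 22.5 CPM. Acvr1, an activin and BMP receptor, was at 45.6 to 53.1 CPM under DMSO and 55.2 to 62.3 CPM under GSK-126 without overlap, at a log2 fold change of 0.25 and an edgeR adjusted p of 0.322. Acvr1b, the main activin type I receptor, had means of 94.5 ± 5.21 CPM and 95.0 ± 2.54 CPM (SD, n = 3 each). Bmpr1b and Acvr1c, which were low, had log2 fold changes of 0.23 and -0.42 with pairs of both signs.

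The 4 type II receptors bind ligand and activate the type I receptor, and 0 of them passed by edgeR or DESeq2 with the block. Tgfbr2, for TGF-beta, had the highest level of them, 14 CPM per kilobase of exon under DMSO. It was at 125.8, 93.6 and 123 CPM under DMSO and 152, 107 and 154 CPM under GSK-126, higher in each pair. Its log2 fold change was 0.26 with an edgeR adjusted p of 0.228, and it was the 1 gene of the 4 with an unadjusted p under 0.05. Bmpr2, Acvr2a and Acvr2b, for BMP and activin, had log2 fold changes of 0.01, -0.06 and -0.27, and their pairs went both ways. Tgfbr3, the co-receptor betaglycan that presents TGF-beta 2 and binds inhibin, was at 65.4 to 71.5 CPM under DMSO and 75.2 to 85.1 CPM under GSK-126. Those groups were apart, at a log2 fold change of 0.20 and an edgeR adjusted p of 0.409.

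All 8 SMAD genes were tested, and 0 were called by edgeR or DESeq2 with the block, while Smad3 and Smad6 had an unadjusted edgeR p under 0.05. Smad4, the shared partner, was the most abundant per kilobase of exon, at 23.1 CPM under DMSO. It was at 93.1, 84.0 and 80.2 CPM under DMSO and 78.9, 96.3 and 83.2 CPM under GSK-126, with a log2 fold change of 0.00 (SE 0.12). Smad3, which carries the TGF-beta and activin signal, was at 46.2, 34.9 and 50.3 CPM under DMSO and 62.7, 46.4 and 57.7 CPM under GSK-126. It was higher in each pair, by a log2 fold change of 0.35 with an edgeR adjusted p of 0.176. Smad6, an inhibitory SMAD that BMP signalling induces, was at 9.43, 4.11 and 8.01 CPM under DMSO and 12.5, 5.77 and 13.4 CPM under GSK-126, at a log2 fold change of 0.55 and an edgeR adjusted p of 0.258. Smad7, the other inhibitory SMAD, had a log2 fold change of 0.18, and Smad2 had 0.26. The BMP-regulated Smad1, Smad5 and Smad9 had log2 fold changes of -0.05, -0.09 and 0.18.

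Of 7 antagonists, which bind ligands outside the cell, 6 were tested and 0 passed by edgeR or DESeq2 with the block. Bmper, a BMP-binding protein, had the highest DMSO level of them per kilobase of exon, 2.58 CPM. It was at 14.7, 11.8 and 10.8 CPM under DMSO and 14.1, 20.2 and 13.4 CPM under GSK-126. Its log2 fold change was 0.33 with an edgeR adjusted p of 0.475. Fst, for follistatin, which traps activin, was near the floor in DMSO replicate 1. Its counts were 3, 11 and 17 under DMSO and 26, 8 and 64 under GSK-126, so pair 2 went down where the other pairs went up. The fitted log2 fold change of Fst, 1.34, had an SE of 0.59 and an edgeR adjusted p of 0.284. Nog, for noggin, and Fstl3, a follistatin relative, had log2 fold changes of 0.64 and 0.62 with edgeR adjusted p of 0.373 and 0.369. Chrd, for chordin, had -0.52, with pairs of -1.21, -0.62 and 0.31. Grem1 had -0.04 (SE 0.61). Fstl3 shares 47.3% of its exon length with Prss57 on the other strand.

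Bmp1 carries the BMP name but encodes a metalloprotease that cleaves chordin and procollagens. It ranked below Fstl1 alone, at 50.9 CPM per kilobase of exon under DMSO. It was at 386, 610 and 359 CPM under DMSO and 293, 427 and 323 CPM under GSK-126, lower in each pair. Its log2 fold change was -0.35 with an edgeR adjusted p of 0.107.

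**Figure D4:**
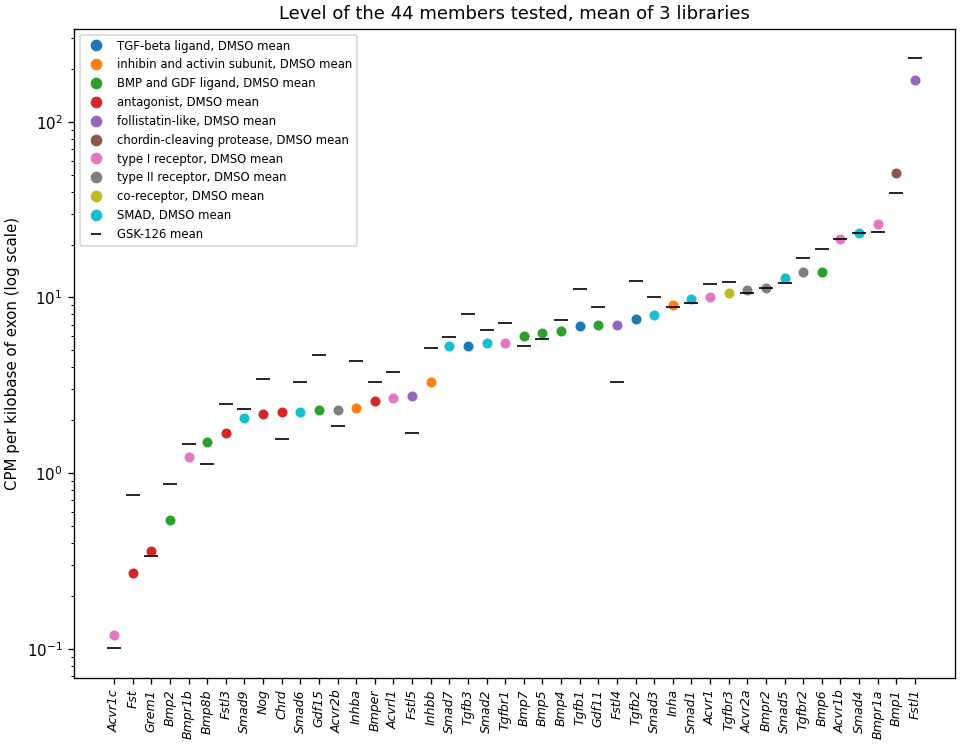
Mean CPM per kilobase of exon (y axis, log scale) of the 44 genes tested, ordered by their DMSO mean, with a point coloured by role for DMSO and a dash for GSK-126 (3 libraries each). Levels ran from 0.121 for Acvr1c to 173 for Fstl1 under DMSO, and the dash lies above the point for Tgfb1, Tgfb2, Inhba and Fstl1 and below it for Fstl4.

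Other genes of TGF-beta, activin and BMP signalling, outside the members, were read from a list of 79 symbols, of which 78 were found and 63 tested. The list held further ligands, genes that process or store ligands, co-receptors, antagonists, intracellular inhibitors, signalling partners and targets. In the blocked edgeR fit 13 rose and 0 fell, 20.6% of those tested, where 3.61% of all genes passed (2.23% higher). At an unadjusted p under 0.05, 21 were higher and 3 were lower, 38.1% against 16.5% of all genes. DESeq2 and limma-voom with the block each called 1 lower, Nedd4l, a ubiquitin ligase that limits SMAD2 and SMAD3. Without the block edgeR called 0, with 13 higher and 0 lower at an unadjusted p under 0.05. The median log2 fold change of the list was 0.12. The list was chosen with earlier results of these data known, so these shares describe it only, and no test of it was made.

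The genes that store and release TGF-beta gave 5 of the 13, of 11 tested in that class. Thbs1, for thrombospondin 1, which activates latent TGF-beta, was at 138, 196 and 290 CPM under DMSO and 291, 385 and 523 CPM under GSK-126. The groups were apart by a small margin, and the log2 fold change was 0.97 with an edgeR adjusted p of 0.000882. Ltbp2, a latent TGF-beta binding protein family member of the matrix, was at 20.2, 35.5 and 52.8 CPM under DMSO and 54.7, 56.3 and 137 CPM under GSK-126, a log2 fold change of 1.16 with an edgeR adjusted p of 0.00351. Fbn1 and Fbn2, the fibrillins that anchor latent complexes, rose by 0.61 and 0.64 on the log2 scale. A gene on the other strand overlaps 20.1% of the exon length of Fbn1, 0.976% of that of Fbn2 and 9.3% of that of Ltbp2. Lrrc32, which tethers latent TGF-beta at the cell surface, rose by 0.52.

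Genes listed as targets of TGF-beta or BMP signalling, the Id genes included, gave 5 more, of 14 tested, and 4 of these 5 are described here. Ccn2, for connective tissue growth factor, was at 153, 219 and 260 CPM under DMSO and 319, 377 and 406 CPM under GSK-126, with a log2 fold change of 0.83 and an edgeR adjusted p of 0.00347, and 23.2% of its exon length overlaps a gene on the other strand. Ccn1, a matrix protein gene related to Ccn2, rose by 0.92. Cdkn2b and Cdkn1a, cyclin-dependent kinase inhibitor genes that TGF-beta induces in epithelia, rose by 1.08 and 0.47. The Cdkn2b pairs differed by 1.97, 0.83 and 0.49 on the log2 scale, and its fitted value was 0.64 without replicate 1.

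The other 3 were Crim1, a BMP-binding transmembrane protein gene (0.68), Pmepa1, which is induced by TGF-beta and limits it (0.64), and Eng, for the endothelial co-receptor endoglin (0.52). Without replicate 2 the calls of 6 of the 13 were lost, with edgeR adjusted p of 0.0874 for Fbn1, 0.0862 for Fbn2, 0.0557 for Cdkn2b, 0.0673 for Lrrc32, 0.0721 for Eng and 0.0724 for Cdkn1a. Lrrc32, Eng and Cdkn1a were also lost without replicate 3, at 0.0793, 0.222 and 0.186. The endothelial and mural, fibroblast and meningeal, microglia, oligodendrocyte lineage and dividing precursor marker sums were higher under GSK-126 in all 3 pairs, as these genes were. Single markers of each of these lists went both ways, and the part of these cell types in the rise was not tested.

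The Id genes are the usual readout of BMP signalling, and none of the 4 was called. Id1 was at 48.6, 20.4 and 49.7 CPM under DMSO and 58.3, 21.02 and 33.9 CPM under GSK-126. Its log2 fold change was -0.08, and those of Id2, Id3 and Id4 were 0.15, 0.17 and 0.12, with edgeR adjusted p of 0.867, 0.693, 0.644 and 0.712 for the 4 in order. Their pairs went both ways, and the sign of Id1, Id2 and Id3 depended on the replicates used.

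**Figure D5:**
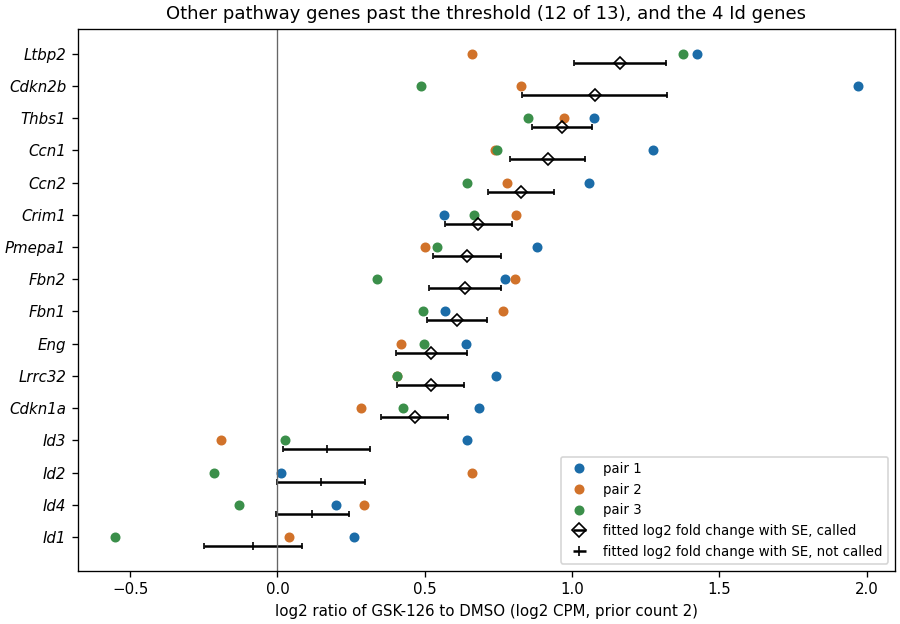
log2 ratio of GSK-126 to DMSO (x axis, log2 CPM with a prior count of 2) in each of 3 pairs (points), with the fitted log2 fold change and its SE, for 12 of the 13 other pathway genes past the threshold (diamonds) and Id1, Id2, Id3 and Id4 (bars). Every pair lies above 0 for these 12 genes, from Ltbp2 at 1.16 to Cdkn1a at 0.47, and the pairs of each Id gene fall on both sides of 0.

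Promoter lists drawn from separate H3K27me3 profiling, not from these libraries, were set beside the members. The list of promoters with less H3K27me3 under GSK-126 in CGN cultures held 6 of the 44 members tested (13.6%), which were 1.58% of the list, and 379 of all 16685 genes tested (2.27%). They were Tgfb2, Tgfbr1 and Tgfbr2 of the TGF-beta arm and Nog, Bmpr1b and Acvr1c. Their log2 fold changes had a median of 0.33, that of all genes on the list was 0.25, and Tgfb2 was the 1 gene of these that passed. Bmp3, which did not reach the filter, was listed too. The other 4 genes past the threshold, Tgfb1, Inhba, Fstl1 and Fstl4, were not on this list, and 0 members were on the list of promoters with more H3K27me3. Of the other pathway genes 10 of 63 (15.9%) were listed as losing the mark, and 5 of them rose (Fbn1, Fbn2, Crim1, Pmepa1 and Ccn1). Of all 16685 genes tested 2.23% rose. The share that rose among the 379 tested genes of this list, whose median was 0.25, was not counted. Of the promoters that lose H3K27me3 between the early postnatal and the adult cerebellum, the list of fast losers held 2 of the 44 members tested (4.55%, against 3.11% of all genes tested), Fstl4 and Smad9, with log2 fold changes of -1.11 and 0.18. The list of slow losers held 4 (9.09%, against 3.404%), Smad3, Tgfbr3, Fstl3 and Acvr1c, with log2 fold changes of 0.35, 0.20, 0.62 and -0.42. Bmpr1b was the 1 member tested on the list of promoters that gain the mark over that time, at a log2 fold change of 0.23. For all tested genes of these lists the median was -0.11 for fast losers, 0.025 for slow losers and 0.19 for gainers.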

How the data were processed

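Poly(A) RNA of CGN cultures was sequenced as paired-end reads, 1 library per sample. The authors deposited unnormalized whole-number counts, in 1 table for each library, and did not pool replicates. The study's methods and processing notes name Trimmomatic 0.38, STAR 2.7.2b with GRCm38 (mm10) and HTSeq; the strand setting is not given in the sources used here. The 5 summary rows were left out: reads over no exon made up 44.8% to 46.8% of fragments, multiply aligned reads 9.54% to 10.4% and ambiguous reads 0.913% to 1.11%. Symbols, coordinates and exon lengths came from GENCODE M21 and promoters from RefSeq (GRCm38.p6).

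Genes with a CPM of 1 or more, scaled to library size alone, in at least 3 of 6 libraries were tested. The test was edgeR 4.0.16 in R 4.3.3 (glmQLFit with legacy=TRUE, glmQLFTest, two-sided), with TMM factors and the replicate number as a block. Benjamini-Hochberg adjustment was made over all 16685 genes at 0.05. Alternatives were DESeq2 1.42.0, limma-voom (limma 3.58.1), another scaling, other filters, no block, and each replicate number left out. Deviations from the group means correlated across genes by 0.335, 0.484 and 0.497 between libraries of the same number and by -0.393 to -0.0147 between different numbers, so the numbers were taken to pair the libraries. The labels do not say that a number marks a shared preparation. With the block, p-values set the mean difference of GSK-126 from DMSO against its variation between the pairs of pooled cultures. edgeR estimates that variation with information shared across genes. Without the block, p-values set the difference against the spread between pooled cultures within a group.

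The members, the lists of other pathway genes and of cell type markers, and the tests were chosen with earlier results of these data known. Named were all members past the threshold, those with an unadjusted p under 0.05, the highest-level members of each role, the other pathway genes past the threshold and Id1 to Id4; Nedd4l was named after its values were seen. CPM is given as mean ± SD or per library, and levels of different genes per kilobase of exon. Values of 1 member and 1 other pathway gene are not reported here, though both are in the counts.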

Additional observations from a re-analysis of the deposited data

How the results depend on the processing

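The fit with the replicate block gave 4 members higher and 1 lower, and DESeq2 and limma-voom with the block, DESeq2 size factors, filterByExpr and legacy=FALSE gave the same counts. Without the replicate block edgeR called 0 higher and 0 lower among members, among the other pathway genes and among all genes, and DESeq2 called 0 members, 0 other pathway genes higher, and 46 genes higher and 13 lower in all, against 372 and 231 with the block. With no filter on low counts 8 members were higher (Bmp6, Gdf15, Inhbb and Tgfb3 added) and 3 lower (Bmp1 and Fstl5 added), and 708 genes were higher and 428 lower; that fit tested 28842 genes, and the cause of the added calls was not tested. Leaving out each replicate number in turn gave 2 to 4 members higher and 1 to 2 lower, 7 to 17 other pathway genes higher, and 175 to 464 genes higher and 78 to 356 lower. Tgfb1, Tgfb2 and Fstl4 passed with any 1 number left out. Among other pathway genes 1 (Nedd4l) was lower with DESeq2 or limma-voom and the block, with no filter and with legacy=FALSE, against 0. Leaving out a replicate number gave Id3 log2 fold changes from -0.075 to 0.35 (below 0 without replicate 1), Id2 -0.088 to 0.33 (below 0 without replicate 2) and Id1 -0.29 to 0.16 (above 0 without replicate 3). Over 34 named genes, 315 of 373 values kept their direction and side of the threshold, 48 fell short of it, 7 newly passed it and 3 changed sign.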
